A study of Mus musculus with 2 samples.

Results

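The genes examined here belong to the methionine cycle and its methyltransferases, and were read in single liver cells of C57BL/6 mice fed chow or a NASH diet. They are Mat1a, Gnmt, Bhmt, Ahcy, Cbs, Cth, Nnmt, Inmt, Pemt and Shmt1. They were taken by symbol from the gene list of the deposited matrices, and all 10 were found among its 31053 genes. The set was chosen by pathway, with earlier results of these data known, and Inmt was selected on its UMI counts in hepatocytes under the 2 diets, so every value below describes these libraries and none is a test.

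The methionine cycle makes and spends S-adenosylmethionine, the methyl donor of the cell. Methionine is activated to S-adenosylmethionine, methyltransferases pass its methyl group to small molecules, lipids, proteins and nucleic acids, and the S-adenosylhomocysteine left over is split to homocysteine. Homocysteine is either methylated back to methionine, with betaine or folate as the donor, or sent through transsulfuration to cysteine and glutathione. The liver runs most of this traffic, and mice that lack Mat1a or Gnmt are known to develop fatty liver.

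There was 1 library of liver cells from mice on chow and 1, called the NASH library here, from mice on the NASH diet, a diet high in fructose, fat and cholesterol that is used to bring about non-alcoholic steatohepatitis. Both diets were fed for 6.5 weeks, and the mice of both groups were of the strain C57BL/6, with no transgene named. Livers were digested with collagenase and cells collected on Percoll gradients at several densities and speeds, and libraries were made with a 10x Genomics 3′ kit, in which each captured RNA molecule is counted as 1 unique molecular identifier (UMI). The sources used here do not give the number or age of the mice behind each library.

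Hepatocytes were gated from the deposited barcodes by marker genes that include none of the 10 genes. This gave 1989 of 7359 chow barcodes with 51135733 UMIs in all and 1056 of 5881 NASH diet barcodes with 22690595 UMIs. In both libraries all 10 hepatocyte markers, among them Alb, Apoa1 and Ttr, were detected in these barcodes. Their summed level was 67835 CPM in chow and 83912 in the NASH library, while the 10 Kupffer cell markers summed to 2.19 and 1.19 and the 12 endothelial markers to 4.22 and 7.36. The Kupffer cell markers Marco, Timd4 and Adgre1 were at 0 in the NASH library. Markers of bile duct cells summed to 160 and 168, mostly from 1 gene, those of dendritic cells to 169 and 193, nearly all from Bst2, and those of red blood cells to 43.7 and 59.4, and their part in the results was not tested. Each of the remaining lists (mesenchymal, T and NK, B and plasma cells and neutrophils) summed to at most 2.51. A chow hepatocyte barcode held a median of 25857 UMIs, of which 18.5% (median) were mitochondrial, against 20613.5 and 23.4% in the NASH library. Levels below are in CPM, UMIs of a gene scaled to 1000000 UMIs of all genes in these barcodes, with exact 95% Poisson intervals that cover counting error only. With 1 library per diet no spread between mice could be measured, and depth, mitochondrial share and diet cannot be told apart between the libraries. Libraries shared 69 barcodes, of which 1 lay in both hepatocyte gates.

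Inmt stood apart from the other 9 genes. It encodes indolethylamine N-methyltransferase, which methylates tryptamine and related amines and also thioethers and selenium compounds. Its level was 27.7 CPM (26.3 to 29.2; 1416 UMIs) in chow hepatocyte barcodes and 326 (319 to 334; 7407 UMIs) in those of the NASH diet. That is 11.8-fold higher under the NASH diet, a log2 ratio of 3.56 (3.48 to 3.64 for counting error), or 3.34 after 5 CPM were added to both levels, the scale used for every ratio from here on unless another is named. Among the 7881 genes with a mean level of at least 5 CPM, 151 were at least 2-fold higher in the NASH library, a background of 1.92%, and Inmt ranked 3 from the top. In barcodes of 15 to 25% mitochondrial UMIs alone the log2 ratio was 3.43, in barcodes of 10000 to 30000 UMIs alone 3.24, and in the 146 chow and 110 NASH diet barcodes with at most 10% mitochondrial UMIs 2.20.

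The Inmt gene lies on the minus strand of chromosome 6 at 55170626 to 55175043 (GRCm38, GENCODE M21), and no other annotated gene overlaps it. Since its level separated the diets most, the sequence just 5′ of the gene is shown, from RefSeq's promoter table for GRCm38.p6, chr6:55175044-55175240, 197 bases read on the minus strand and lying outside the RefSeq and the GENCODE transcripts. Capitals mark 46 bases that occur back to back in identical copies, at positions 16 to 61 and 62 to 107 of the line.

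Inmt upstream: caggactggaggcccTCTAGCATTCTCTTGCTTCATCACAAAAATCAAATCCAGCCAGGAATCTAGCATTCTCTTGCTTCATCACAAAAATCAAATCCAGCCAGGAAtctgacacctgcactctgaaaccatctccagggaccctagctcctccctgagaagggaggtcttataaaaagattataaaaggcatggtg

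Promoter windows in the table are 300 bases long, and repeats and motifs were searched in the first 250 bases of each. An exact repeat of at least that length was present in 57 of 32851 windows, 0.174%. The window of Inmt also held 2 matches to TATAAA, the core of the TATA box, which 12.4% of all windows hold on either strand. It was the only window among those of the 7 matched genes (Gnmt, Bhmt, Ahcy, Cbs, Inmt, Pemt and Shmt1, with 8 windows because Pemt had 2) with such a match. The nuclear receptor half-site AGGTCA was in the windows of Ahcy, Bhmt and Gnmt, against 14.0% of all windows, and the GC box GGGCGG in those of Ahcy, Cbs and Shmt1, against 32.7%. The E-box CACGTG was found for Cbs (6.02% of all windows) and the TCF core ATCAAAG for Pemt (3.21%). The DR1 element (AGGTCA repeated in the same direction after 1 free base), the C/EBP palindrome TTGCGCAA and the palindromic HNF1 site were searched as well, on both strands, and matched none of the 8 windows, against 0.0335%, 0.164% and 0.00913% of all windows. AGGTCA is contained in DR1.

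The difference in Inmt was spread over most barcodes of the NASH library. To compare barcodes at equal depth, each was thinned at random to 5000 UMIs. An Inmt UMI was then present in 242 of 1989 chow barcodes, 12.2% (exact 95% binomial interval 10.8 to 13.7), and in 793 of 1056 NASH diet barcodes, 75.1% (72.4 to 77.7). Without thinning the shares were 37.7% and 96.0%. In thinned chow barcodes 9.85% held 1 Inmt UMI, 1.91% held 2 and 0.402% held 3 or more, against 28.3%, 22.2% and 24.6% in the NASH library. No barcode dominated the sums, since the barcode with most Inmt UMIs gave 1.48% of them in chow and 0.513% in the NASH library. The median level over single barcodes was 0 in chow and 295 CPM in the NASH library, with quartiles of 182 and 444 in the latter.

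**Figure D1:**
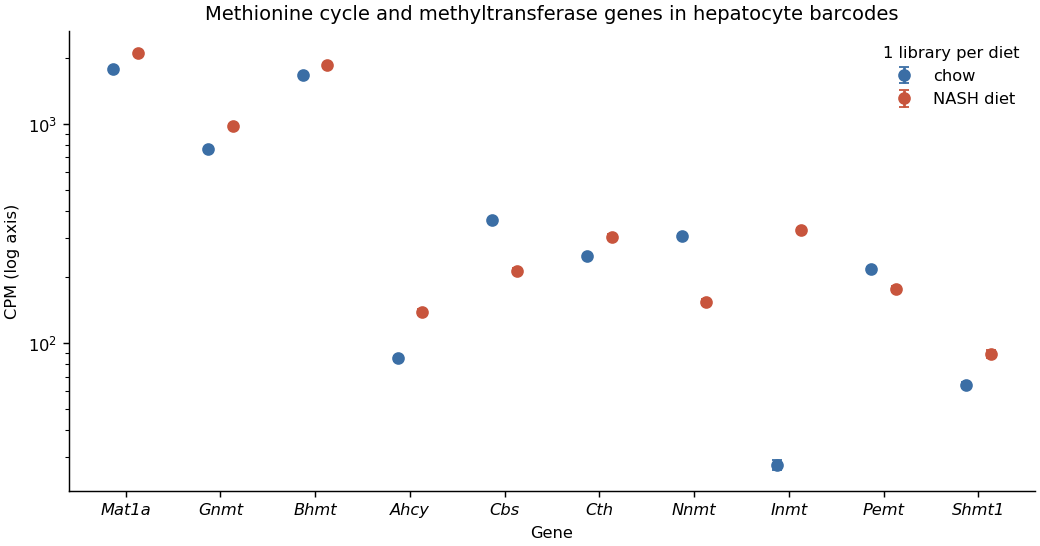
Level of each gene in hepatocyte barcodes, in CPM on a log axis, for chow (blue) and the NASH diet (red). Bars are exact 95% Poisson intervals of the UMI sums, mostly smaller than the points, and Inmt shows the widest gap, at 27.7 against 326 CPM.

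The other methyltransferases did not share this difference. Nnmt, nicotinamide N-methyltransferase, which uses the methyl donor to clear nicotinamide, was at 308 CPM (303 to 313; 15734 UMIs) in chow and 153 (148 to 158; 3476 UMIs) under the NASH diet. It was thus 2.01-fold lower, a log2 ratio of −1.01 (−1.06 to −0.95) on the levels as counted and −0.98 with 5 added to both, just inside the 2-fold limit, which it passed under 7 of 14 other settings. In barcodes of at most 10% mitochondrial UMIs the ratio was smaller, at −0.70. Nnmt was lower in barcodes with more mitochondrial RNA, with a Pearson r of −0.35 in chow and −0.33 in the NASH library. A Nnmt UMI was present in 73.2% (71.1 to 75.1) of thinned chow barcodes and 49.0% (45.9 to 52.0) of thinned NASH diet barcodes. Barcodes with 3 or more Nnmt UMIs made up 22.4% and 7.20%. Inmt and Nnmt therefore lay on opposite sides, and Nnmt was at the 1.74 percentile of the 7881 ratios.

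Gnmt, glycine N-methyltransferase, is the abundant liver enzyme that uses up S-adenosylmethionine by methylating glycine to sarcosine. Its level was 764 CPM (756 to 772) in chow and 978 (965 to 991) in the NASH library, a log2 ratio of 0.35. Within each library Gnmt was lower in barcodes with more mitochondrial RNA, with a Pearson r of −0.55 over 1989 chow barcodes and −0.56 over 1056 NASH diet barcodes. With barcodes of at most 10% mitochondrial UMIs (146 chow and 110 NASH diet barcodes) the ratio was −0.16, and with those between 15 and 25% it was 0.27, so the direction for Gnmt depended on that limit. Pemt, phosphatidylethanolamine N-methyltransferase, makes phosphatidylcholine by methylation. It was at 217 CPM (213 to 221) and 176 (171 to 182), a log2 ratio of −0.29, and its UMIs were in 63.7% and 57.1% of thinned barcodes.

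The genes that make the methyl donor and split its product were both higher under the NASH diet by less than 2-fold. Mat1a, the liver form of methionine adenosyltransferase, was at 1781 CPM (1769 to 1792) in chow and 2099 (2081 to 2118) in the NASH library, a log2 ratio of 0.24. Its UMIs were in 99.5% and 99.8% of thinned barcodes, so that almost every hepatocyte barcode held it under both diets. Ahcy, the hydrolase that splits S-adenosylhomocysteine, was at 84.8 (82.3 to 87.3) and 138 (133 to 143), a log2 ratio of 0.67. That value ranked 395 from the top of the 7881 ratios, and Ahcy UMIs were in 34.5% (32.4 to 36.6) and 47.3% (44.2 to 50.3) of thinned barcodes.

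The branches that use homocysteine differed between themselves. Bhmt, betaine-homocysteine methyltransferase, which returns homocysteine to methionine, was at 1667 CPM (1656 to 1678) and 1841 (1824 to 1859), a log2 ratio of 0.14, with UMIs in 99.0% of thinned barcodes in both libraries. The last 500 bases of its longest protein-coding transcript match the pseudogene Gm5096 at 98.2% over 276 bases. Over all barcodes of each library, not hepatocyte barcodes alone, Gm5096 received 231 UMIs in chow and 206 in the NASH library. Whether this likeness changed the Bhmt counts was not tested. Cbs, cystathionine beta-synthase, which commits homocysteine to transsulfuration, was at 362 (357 to 367) and 213 (207 to 219), a log2 ratio of −0.75 at the 2.88 percentile. Its share of thinned barcodes with a UMI was 81.4% (79.7 to 83.1) in chow and 65.5% (62.6 to 68.4) in the NASH library. Cth, cystathionine gamma-lyase, the next enzyme of that branch, lay on the other side, at 248 (244 to 252) and 304 (297 to 312), a log2 ratio of 0.29. Shmt1, the cytosolic serine hydroxymethyltransferase that feeds methyl groups into folate, was at 64.1 (62.0 to 66.4) and 89.0 (85.2 to 93.0), a log2 ratio of 0.44.

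Counted over the set, 1 of 10 genes (Inmt) was at least 2-fold higher and 0 were at least 2-fold lower, where 134 of the 7881 genes (1.7%) were lower. Ratios above 0 were found for 7 of the 10, and the median of the 10 was 0.26, against a median of 0.10 over all 7881 genes, of which 65.1% lay above 0. Of the 3 genes below 0, Nnmt, Cbs and Pemt, 2 are methyltransferases and 1 belongs to transsulfuration.

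**Figure D2:**
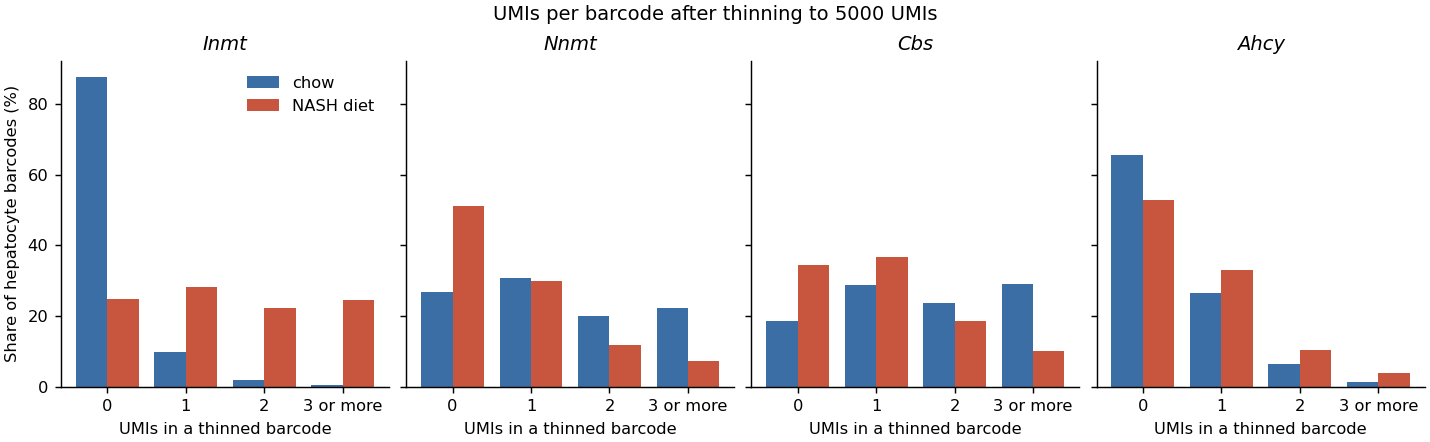
Share of hepatocyte barcodes (percent) with 0, 1, 2 or 3 or more UMIs of Inmt, Nnmt, Cbs and Ahcy after thinning every barcode to 5000 UMIs, for chow (blue, 1989 barcodes) and the NASH diet (red, 1056 barcodes). Barcodes without an Inmt UMI were 87.8% in chow and 24.9% in the NASH library, while for Nnmt they were 26.8% and 51.0%.

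Hepatocytes divide their work along the lobule, from the periportal side, where blood enters, to the pericentral side around the central vein. To place the 10 genes on this axis, each hepatocyte barcode was scored by 10 pericentral landmark genes (among them Glul and Cyp2e1) against 10 periportal landmarks (among them Cyp2f2 and Hal), none of them in the set. Barcodes of each library were then ranked and divided into 3 equal ranges, of 663 barcodes each in chow and 352 each in the NASH library. Of 6 pericentral and 6 periportal genes kept out of the score as a check, all 12 lay on their known side in both libraries. However, the pericentral check gene Nkd1 was barely detected in chow, at 0 CPM in the periportal and 0.174 in the pericentral range, a log2 ratio of 0.05. A range is a stretch of ranks and not a cell type, and 14.7% of chow and 19.8% of NASH diet barcodes lay within 0.1 score units of a limit between ranges. Because ranks were set within each library, ranges of the same name need not cover the same stretch of the lobule. With the chow library's score limits applied to the 1056 NASH diet barcodes, 527 were periportal and 290 pericentral. Median mitochondrial shares in the periportal, middle and pericentral ranges were 17.6%, 18.0% and 20.3% in chow and 23.9%, 23.9% and 22.1% in the NASH library.

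Inmt was highest on the pericentral side under both diets. In chow its levels were 16.9 CPM (15.1 to 18.9) in the periportal range, 16.5 (14.6 to 18.6) in the middle and 49.2 (46.0 to 52.7) in the pericentral range. The pericentral to periportal log2 ratio was 1.31, and Inmt was the 1 gene of the 10 past 2-fold, where 148 of 7751 genes (1.91%) were at least 2-fold higher on that side. On the periportal side 0 of the 10 were, where 1.24% of genes were. Under the NASH diet the levels were 286 (274 to 298), 274 (261 to 287) and 401 (388 to 414), a log2 ratio of 0.48, where 2.91% of 7915 genes were at least 2-fold higher. An Inmt UMI was in 9.80%, 7.54% and 19.2% of thinned chow barcodes of these ranges and in 73.3%, 69.3% and 82.7% of those of the NASH diet. Every range of the NASH library was thus above the highest range of chow.

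The profile in 6 narrower ranges showed where these levels changed. Chow Inmt went from 22.1 CPM in the most periportal range through 12.2, 10.2, 23.5 and 35.4 to 62.7 in the most pericentral. Under the NASH diet the 6 levels were 313, 257, 275, 273, 398 and 403. In both libraries the level was lowest between the ends of the axis and higher at the periportal end than in the range next to it. The diet ratio on the log2 scale was 3.73 in the periportal range, 3.70 in the middle and 2.90 in the pericentral range, and the difference between these ratios was not tested.

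**Figure D3:**
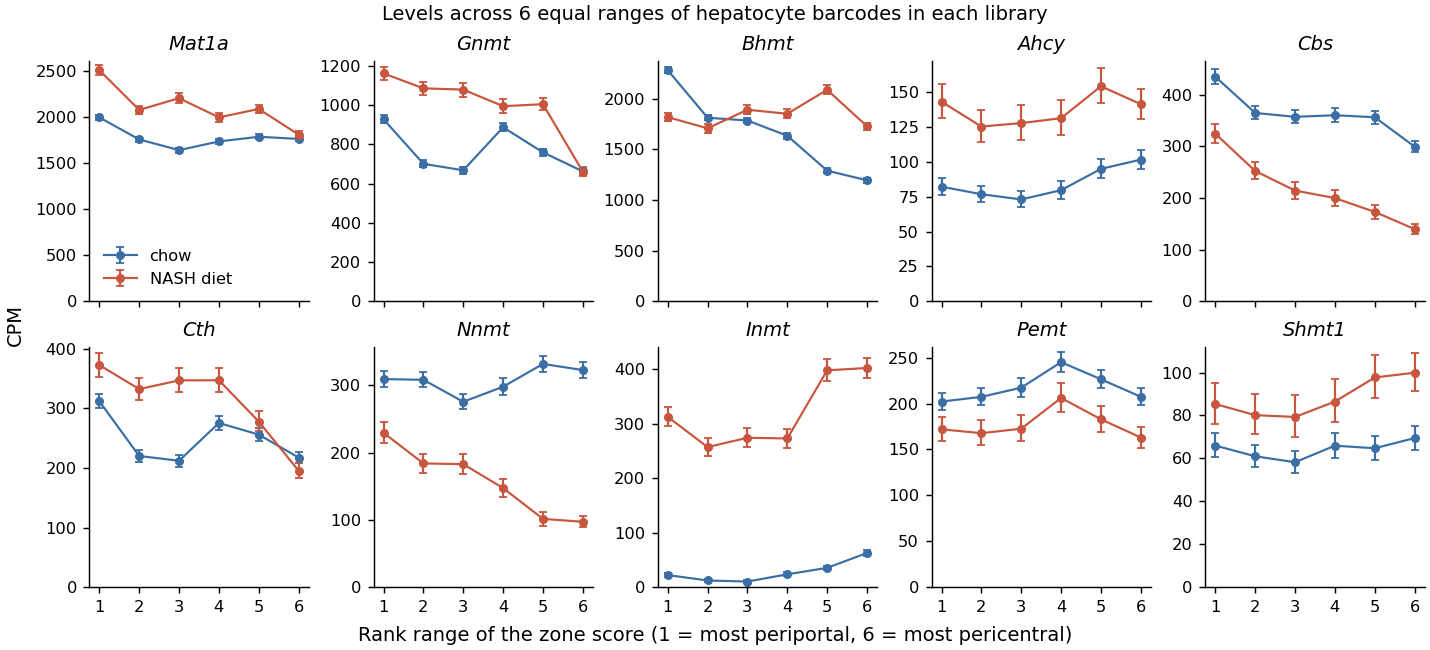
Levels (CPM, linear axes from 0, a separate axis for each gene) in 6 equal rank ranges of the zone score, from most periportal (1) to most pericentral (6), for chow (blue) and the NASH diet (red), with exact 95% Poisson intervals. Nnmt is nearly flat in chow and goes from 229 to 97.1 in the NASH library, while Inmt is highest on the pericentral side in both.

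Nnmt had almost no slope in chow and a steep one under the NASH diet. Its chow levels were 309 CPM (300 to 317) in the periportal, 286 (278 to 294) in the middle and 327 (319 to 336) in the pericentral range, a pericentral to periportal log2 ratio of 0.08. Under the NASH diet they were 207 (197 to 218), 165 (155 to 175) and 98.9 (92.5 to 106), a ratio of −1.03. It was the 1 gene of the 10 at least 2-fold lower on the pericentral side, where 105 of 7915 genes (1.33%) were. The share of thinned barcodes with a Nnmt UMI was 75.4%, 68.6% and 75.4% in chow and 57.1%, 51.7% and 38.1% under the NASH diet. The diet ratio of Nnmt was therefore −0.56 in the periportal, −0.78 in the middle and −1.68 in the pericentral range.

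Cbs, like Nnmt, was lowest in the pericentral range under the NASH diet, and unlike Nnmt it was lowest there in chow too. Its chow levels were 398, 359 and 328 CPM from the periportal to the pericentral range, a log2 ratio of −0.28, and its NASH diet levels 289, 207 and 154, a ratio of −0.89. The diet ratio was −0.46, −0.78 and −1.06. In the pericentral range Nnmt and Cbs were thus the 2 genes of the 10 at least 2-fold lower under the NASH diet, where 141 of 7944 genes (1.77%) were, and Inmt the 1 gene at least 2-fold higher, where 2.29% were. In the periportal range 0 of 10 were at least 2-fold lower (2.12% of 7687 genes) and Inmt was again the 1 higher (1.67%). The middle range gave the same counts, with 2.09% of 7802 genes lower and 1.7% higher.

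Bhmt had a slope in chow that was missing under the NASH diet. Its chow levels were 2037 CPM (2016 to 2058), 1714 (1694 to 1734) and 1242 (1225 to 1258) from the periportal to the pericentral range, a log2 ratio of −0.71. Under the NASH diet they were 1764 (1734 to 1795), 1871 (1838 to 1904) and 1884 (1855 to 1913), a ratio of 0.09. Bhmt was accordingly lower under the NASH diet in the periportal range, with a diet ratio of −0.21, and higher in the pericentral range, with 0.60. The small overall ratio of 0.14 sums these opposite values.

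Gnmt and Cth, by contrast, had a steeper slope under the NASH diet. Gnmt levels were 809, 772 and 710 CPM in chow and 1125, 1037 and 810 in the NASH library, log2 ratios of −0.19 and −0.47. Cth levels were 264, 242 and 236 in chow and 353, 347 and 231 in the NASH library, ratios of −0.16 and −0.60, so that Cth differed between diets by 0.41 in the periportal and −0.03 in the pericentral range. In the most pericentral of the 6 ranges Gnmt was at 662 in chow and 661 under the NASH diet.

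Mat1a, Ahcy, Pemt and Shmt1 differed by less than 2-fold between the outer ranges in both libraries. Their pericentral to periportal log2 ratios in chow were −0.08, 0.29, 0.08 and 0.08, and under the NASH diet −0.25, 0.12, 0.01 and 0.24. For comparison, the median over all genes was 0.10 in chow and 0.15 in the NASH library. Their diet ratios kept 1 sign in all 3 ranges, at 0.30, 0.32 and 0.12 for Mat1a, 0.72, 0.73 and 0.56 for Ahcy, −0.26, −0.28 and −0.33 for Pemt, and 0.36, 0.40 and 0.53 for Shmt1. Of the 10 genes, Bhmt had diet ratios of opposite sign in the outer ranges. The pericentral ratio of Cth, −0.03 (−0.11 to 0.04 as counted), could not be told from 0 and was 0.02 with a mitochondrial limit of 50%.

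Across single barcodes within a library, the genes of the set were only loosely linked. The highest Pearson coefficients of log levels were those of Gnmt with Bhmt, 0.45 over 1989 chow and 0.54 over 1056 NASH diet barcodes, and of Gnmt with Cth, 0.45 and 0.44. These genes shared another correlate, since Bhmt had coefficients of −0.33 and −0.44 with the mitochondrial share, beside the −0.55 and −0.56 of Gnmt. Inmt had 0.27 and 0.16 with Gnmt, 0.15 and 0.26 with Bhmt, 0.22 and 0.14 with Cth, and between −0.06 and 0.14 with the other 6 genes in either library. Its coefficients with the mitochondrial share were −0.09 and −0.06. Inmt and Nnmt were at 0.01 and −0.03. All points share their library, and counts this sparse hold correlations down.

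Over the 12 points given by the 6 ranges in both libraries, the genes whose log2 level ran most like that of Inmt among 4093 genes were Cisd1 (r = 0.993), Macrod1 (0.993), Immt (0.991), Akr1d1 (0.990) and Ephx2 (0.990). Cisd1 and Immt encode mitochondrial membrane proteins, Akr1d1 a reductase of bile acid synthesis and Ephx2 the soluble epoxide hydrolase. Within the libraries, over the 6 chow points the coefficients were 0.954, 0.983, 0.985, 0.907 and 0.970, and over the 6 NASH diet points 0.872, 0.792, 0.675, 0.832 and 0.958. The diet steps of these genes were smaller than that of Inmt, from 0.57 for Immt to 1.31 for Macrod1. All chow points of Inmt (10.2 to 62.7 CPM) lay below all its NASH diet points (257 to 403 CPM). A step between the libraries in the same direction therefore raises r over the 12 points, and r does not measure the size of that step. Within the set Ahcy came closest, ranking 9 of 4093 with 0.989 (0.966 over the chow points and 0.877 over the NASH diet points), followed by Shmt1 at rank 144 with 0.954.

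The wider pathway was described by 8 lists of 111 genes, the 10 included, of which 96 reached the mean level of 5 CPM. In these lists 3 genes were at least 2-fold higher under the NASH diet (Inmt, Nampt and Srm), 1 was at least 2-fold lower (Chka) and 92 lay within 2-fold, where 3.62% of all 7881 genes were past 2-fold in either direction. The median of the 96 was 0.25, and 73 of them lay above 0, beside a median of 0.10 and 65.1% above 0 over all 7881 genes.

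Nampt, which recycles nicotinamide to NAD and so draws on the substrate of Nnmt, was at 33.1 CPM in chow and 75.3 under the NASH diet, a log2 ratio of 1.08, which no longer reached 2-fold once the median of all genes was set to 0. In the nicotinamide and NAD list 1 of 15 genes was higher and 0 lower by 2-fold, where 1.92% and 1.7% of all 7881 genes were. The median of that list was 0.19, beside 0.10 over all genes. Srm, spermidine synthase, which uses decarboxylated S-adenosylmethionine, was at 16.1 and 41.2, a ratio of 1.13. The 10 measured genes of methionine salvage and polyamine synthesis had a median of 0.34 and none lay below 0. However, Sat1 (0.02), Mri1 (0.04) and Sms (0.15), picked out after their values were seen, had counting intervals that held 0.

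Chka, a choline kinase that opens the other route to phosphatidylcholine beside Pemt, was at 91.3 and 30.7 CPM, a ratio of −1.43. It was the 1 gene of 13 in the list of phosphatidylcholine and phosphatidylethanolamine synthesis past 2-fold, and the list's median was 0.20. Among small-molecule methyltransferases 1 of 15 genes, Inmt, was at least 2-fold higher, and their median was 0.30. The lists of S-adenosylmethionine synthesis and hydrolysis (7 genes), remethylation and betaine (9), transsulfuration (13) and folate (16) had 0 genes past 2-fold, with medians of 0.30, 0.39, 0.25 and 0.20. Over all 7881 genes 3.62% were past 2-fold in either direction, 1.92% were at least 2-fold higher, and the median was 0.10. No list was tested against these values.

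Close paralogs of the set were read as separate genes. Mat2a, the methionine adenosyltransferase of most other tissues, was at 61.1 CPM in chow and 109 under the NASH diet, a log2 ratio of 0.78 beside the 0.24 of Mat1a. Bhmt2 was at 203 and 197 (−0.05), Shmt2, the mitochondrial counterpart of Shmt1, at 73.4 and 103 (0.46), and the Ahcy-like genes Ahcyl1 and Ahcyl2 at 48.3 and 54.2 (0.15) and at 12.1 and 17.8 (0.42). None of these paralogs was past 2-fold.

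**Figure D4:**
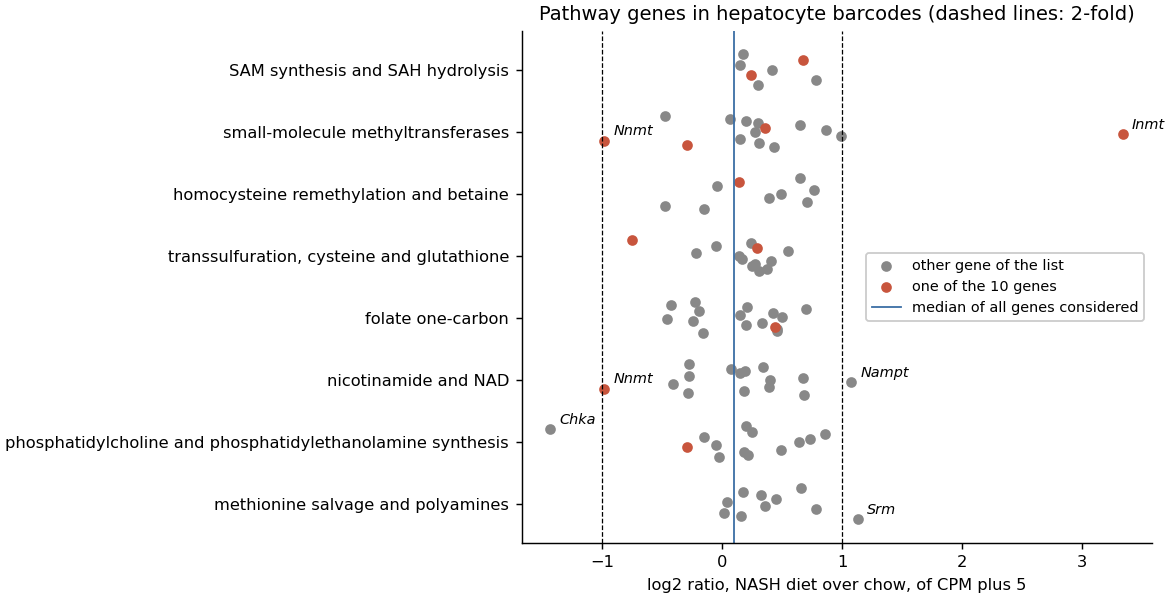
Log2 ratio of NASH diet over chow levels (CPM plus 5) of each measured gene of the 8 pathway lists, with the set of 10 in red and the other genes in grey. Dashed lines mark 2-fold and the blue line the median of all 7881 genes (0.10), and Inmt at 3.34 lies far from the rest, with Nampt (1.08) and Srm (1.13) just past 2-fold higher and Chka (−1.43) lower.

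The Inmt difference was also present outside the hepatocyte gate. Barcodes with 500 to 1500 UMIs and hepatocyte RNA (1898 in chow and 745 in the NASH library) held 34.4 CPM of Inmt (25.2 to 45.9; 46 UMIs) and 417 (373 to 465; 322 UMIs). Those with 1500 to 5000 UMIs held 83.0 (64.3 to 105) and 405 (362 to 451). Barcodes with a mitochondrial share of 30 to 80% held 40.4 (33.4 to 48.3) and 255 (242 to 268), and those above 80% held 2.38 (1.65 to 3.33) and 24.7 (21.3 to 28.6). In each of these classes the NASH library was above chow, and Nnmt was lower in each, with ratios of −1.20, −1.09, −0.60 and −0.53. The 28 chow and 57 NASH diet barcodes with at least 5000 UMIs but under 2% hepatocyte markers, and in no non-parenchymal gate, held 23.0 (10.5 to 43.7) and 118 (94.1 to 147) of Inmt. In these Nnmt had a ratio of −1.02 and Gnmt one of −0.99, against 0.35 for Gnmt in hepatocyte barcodes.

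Barcodes gated as non-parenchymal cells by the markers of Kupffer, endothelial and other classes served as a background, since RNA set free from hepatocytes can be caught in any droplet. Of their 120 barcodes in chow and 92 in the NASH library (median 4941 and 4969.5 UMIs, against 25857 and 20613.5 in hepatocyte barcodes), Inmt had 6 and 25 UMIs, which is 8.47 CPM (3.11 to 18.4) and 44.0 (28.5 to 64.9). After thinning to 1000 UMIs, an Inmt UMI was in 0 of 107 chow barcodes, so that a share of up to 2.80% is possible by a limit of 3 counts (3.39% by the exact 95% interval), and in 5 of 84 NASH diet barcodes, 5.95% (1.96 to 13.3). At the same depth hepatocyte barcodes had 3.02% (2.31 to 3.87) and 27.4% (24.7 to 30.2). The NASH diet hepatocyte share was thus above this background, while in chow the share at 1000 UMIs could not be told from it. The chow level of 27.7 CPM was above the 8.47 of the non-parenchymal gates, with intervals that did not overlap.

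Relative to Mat1a, a hepatocyte transcript, Inmt was counted 1.56 times per 100 Mat1a UMIs (1.47 to 1.64) in chow hepatocyte barcodes and 15.5 times (15.2 to 15.9) in those of the NASH diet. In NASH diet droplets of 500 to 1500 UMIs it was 20.9 (18.4 to 23.5), in barcodes of 30 to 80% mitochondrial share 16.7 (15.9 to 17.6) and in the non-parenchymal gates 35.2 (21.4 to 56.2; 25 against 71 UMIs). The endothelial gate gave 14 Inmt and 40 Mat1a UMIs, 35.0 per 100 (17.6 to 65.7), and the Kupffer cell gate 4 and 17. In chow the ratio was 2.45 (1.79 to 3.28) in droplets of 500 to 1500 UMIs, 3.26 (2.69 to 3.91) in barcodes of 30 to 80% mitochondrial share and 4.88 (1.76 to 10.9; 6 against 123 UMIs) in the non-parenchymal gates. The Inmt to Mat1a ratio in non-parenchymal barcodes was thus above that of hepatocyte barcodes by their intervals in both libraries, and what part free RNA has in it was not tested.

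**Figure D5:**
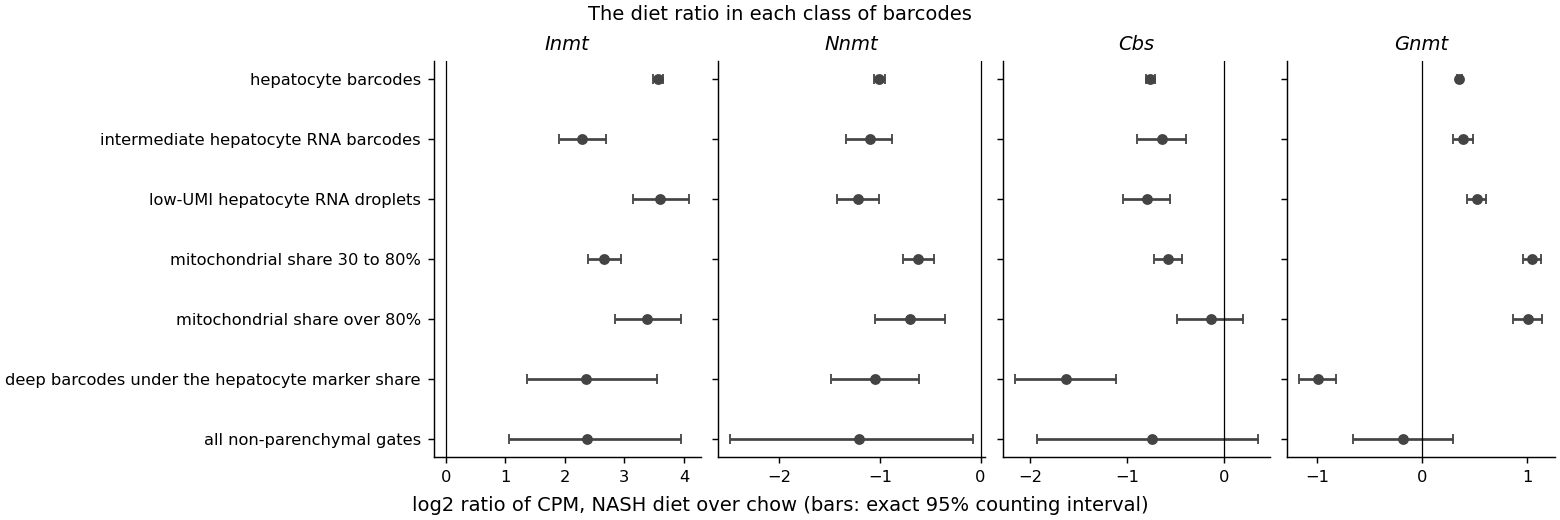
Log2 ratio of NASH diet over chow CPM, with nothing added, for Inmt, Nnmt, Cbs and Gnmt in 7 classes of barcodes, with exact 95% counting intervals as bars and 0 as the vertical line. Inmt lies above 0 and Nnmt below 0 in all 7 classes, while Gnmt is at −0.99 in the deep barcodes under the hepatocyte marker share, at −0.18 in the non-parenchymal gates and above 0 in the other 5.

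The remaining genes lie on GRCm38 as follows in GENCODE M21: Mat1a on chromosome 14 at 41105035 to 41124412, Gnmt on chromosome 17 at 46725664 to 46729168, Bhmt on chromosome 13 at 93616675 to 93637961, Ahcy on chromosome 2 at 155059310 to 155074497 and Cbs on chromosome 17 at 31608894 to 31637238. Cth lies on chromosome 3 at 157894248 to 157925077, Nnmt on chromosome 9 at 48591877 to 48605153, Pemt on chromosome 11 at 59970614 to 60046489 and Shmt1 on chromosome 11 at 60788104 to 60811718. Genes on the opposite strand overlap Gnmt, Bhmt, Ahcy and Shmt1, and the annotated transcript Gm43314 overlaps Cth on its own strand. The sources used here do not say whether the counting used strand, so UMIs of these 5 genes could include some from their neighbours. Inmt, Nnmt, Cbs, Mat1a and Pemt had no overlapping gene.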

How the data were processed

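The deposited matrices held whole UMI counts for each gene in each barcode, not normalized, and per the file headers came from Cell Ranger 3.0.2. The submitters' processing notes name Cell Ranger 3.1.0, Seurat and the build mm10. A merged matrix, whose chow part held 86.4% of the chow library's own UMIs, was used as an alternative only.

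Barcodes with at least 200 genes and 5000 UMIs, at most 30% mitochondrial UMIs, hepatocyte markers at 2% or more and markers of other cell classes at 0.2% or less of non-mitochondrial UMIs were taken as hepatocytes. No doublet caller was run, so a pair of hepatocytes under 1 barcode stays in. Other classes were gated on at least 3 of their markers. The zone score was the mean z-score of log levels per 10000 UMIs of pericentral minus periportal landmarks, within library. Thinning was 1 seeded draw without replacement. Promoter sequences came from RefSeq, and 31011 of 31053 gene IDs matched GENCODE M21. Python 3.11.15, numpy 2.4.6, scipy 1.17.1 and pandas 2.3.3 were used. The log2 ratio and the 2-fold rule were checked on simulated counts, and the interval code was not.

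The genes and lists were chosen with earlier results of these data known. All 10 genes are named, together with list genes past 2-fold (up to 3 in each direction), paralogs and the 5 genes most like Inmt. The motifs, the repeat search and the limits of 97% identity and 90 bases for 3′ end copies were chosen after the data had been seen. With 1 library per diet, no test was made. Alternatives covered the mitochondrial, UMI and marker limits, scaling, pseudocount, thinning depth, zone limits and the merged matrix.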

Additional observations from a re-analysis of the deposited data

Results flagged for a closer look

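The diet ratio of Bhmt had opposite directions at the ends of the liver lobule. On levels as counted, the log2 ratio of the NASH diet over chow was −0.207 in the periportal range and 0.602 in the pericentral range, and the difference was not tested, since each diet had 1 library.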

How the results depend on the processing

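The direction of the diet ratio was the same under all 14 alternatives for 9 of the 10 genes, the exception being Gnmt, at −0.16 with a mitochondrial limit of 10%. Pemt came near 0 with that limit, at −0.04, and so did Bhmt in barcodes of 15 to 25% mitochondrial UMIs, at 0.03. Inmt stayed at least 2-fold higher under all 14 alternatives. Its log2 ratio of 3.34 was 2.20 with the limit of 10%, 3.22 with no mitochondrial limit, 3.44 per non-mitochondrial UMIs, 3.25 with the median of all genes set to 0, 3.23 as a mean over barcodes, 3.51 and 2.86 with 1 and 20 CPM added, and 3.45 with other-class markers at most 0.05%. Among alternatives chosen after seeing the data, it was 3.43 in barcodes of 15 to 25% mitochondrial UMIs and 3.24 in those of 10000 to 30000 UMIs. The gap in the share of barcodes with an Inmt UMI was 62.9 percentage points, 58.3 without thinning and 40.8 at 2000 UMIs. The count of genes at least 2-fold lower was 1 (Nnmt) rather than 0 with the merged matrix, mitochondrial limits of 50% or none, the median at 0, 1 added, markers at 0.05%, and 15 to 25% mitochondrial UMIs. Pathway genes at least 2-fold lower were 2 rather than 1 with the limit of 50%, the median at 0 and 1 added, and 5 rather than 3 were higher with 1 added, against 2 with the median at 0, where Nampt was lost. The NASH diet zone ratio of Inmt, 0.48, was 0.40 between the outermost 20% of barcodes at either end and 0.34 at 15 to 25% mitochondrial UMIs, and 2 genes rather than 1 were at least 2-fold lower pericentrally between those ends. Zone ratios changed sign in 2 of 20 cases (Bhmt and Pemt in the NASH library, both near 0), diet ratios in the outer ranges in 1 of 20 (Cth) and share differences in 2 of 10 (Bhmt and Cth). The causes were not tested. Depth limits Inmt most in chow, where it rests on 1416 UMIs. No paired analysis was possible because each diet had 1 library, and for the same reason no replicate could be left out.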
